A study of Rattus norvegicus with 12 samples.

Results

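The genes described here are the receptors of the ErbB family (Egfr, Erbb2, Erbb3 and Erbb4) and 5 ligands that bind them (Nrg1, Hbegf, Areg, Ereg and Btc). They were chosen by name, as every transcript whose gene name in the 12 expression tables is 1 of these, and the rule uses no measured value. They make up 9 of 17301 genes and 22 of 18752 transcripts. Nrg1 has 14 of those transcripts and each other gene has 1. A value above 0 in all 12 samples, the condition for the test across genes, was found for 6 of the 9, and Nrg1, Ereg and Btc fell short of it.

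The samples are cultured ventricular myocytes (ARVMs) from the hearts of adult male Sprague Dawley rats, of no stated age beyond adult. Cells of 6 samples made human NR4A2 from an adenovirus named Ad-h-NR4A2, whose insert is not shortened and is driven by the cytomegalovirus promoter, and cells of the other 6 made eGFP from the control virus Ad-GFP. Both viruses were given at a multiplicity of infection of 50, when the serum of the plating step was withdrawn. The cells then went into medium with albumin, insulin, transferrin, selenium, lipids, antibiotics and butanedione monoxime. RNA was taken after 48 h in that medium. The comparison asks which transcripts differ when a cell makes the nuclear receptor NR4A2. Both groups carry a virus, and cells without one were not analysed here. Each group has 1 sample for each number from 24 to 29, and samples are named by group and number.

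Levels are FPKM, fragments scaled to transcript length and to the mapped fragments of the sample, as the authors deposited them, so levels can be set side by side between genes. The steps between FPKM values of short counts implied 18800000 to 28000000 mapped fragments in Ad-GFP (median 23700000) and 21500000 to 27300000 in Ad-h-NR4A2 (median 23600000). Fragment counts given for a gene were worked out from these depths. They show how thin some values are: a member at 0.0181 FPKM rested on 2 fragments.

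The group labels were checked on Nr4a2, which is the gene the virus delivers. Its mean was 0.884 ± 0.309 FPKM (SD, n = 6) in Ad-GFP and 524 ± 70.3 in Ad-h-NR4A2, a log2 fold change of 9.10 (SE 0.17, limma adjusted p 6.59e-13), higher in 6 of 6 pairs of samples with the same number. The reads were aligned to the rat genome, so the human sequence counts only as far as it aligns there. The cell label was checked on 6 cardiomyocyte markers, all of them above 0 in all 12 samples. Troponin I (Tnni3) was the most abundant at 9196 FPKM in Ad-GFP and 7880 in Ad-h-NR4A2 (log2 fold change -0.22, adjusted p 0.119), followed by Tnnt2 at 7189 and 5992 (log2 fold change -0.26, adjusted p 0.00477). The summed level of the 6 ran from 16892 to 21943 FPKM in Ad-GFP and from 15163 to 18142 in Ad-h-NR4A2. Of the 6, 4 were lower and 1 was higher at an adjusted p below 0.05, beside 21.7% and 19.3% of all genes tested. The pair called lower, with a ratio of at least 1.5 as well, were the calcium release channel gene Ryr2 (85.7 to 53.4 FPKM, log2 fold change -0.68, adjusted p 8.46e-05) and phospholamban, Pln (1428 to 873 FPKM, log2 fold change -0.72, adjusted p 0.00101). In bulk RNA, fewer cells of a type and less RNA per cell cannot be told apart.

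ErbB receptors are tyrosine kinases of the cell surface that pair up when a ligand of the EGF family binds, and they pass the signal to the Ras-ERK and PI3K-Akt routes. ErbB2 binds no ligand of its own and ErbB3 has little kinase activity, so each works in a pair with another member. In the heart, neuregulin 1 from endothelial cells acts on ErbB4 and ErbB2 of the myocyte, a pair known for its part in heart development and in the heart damage seen with antibodies against ErbB2.

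Receptors come first. Erbb2, the partner that needs no ligand, had a lowest, median and highest level of 3.35, 3.59 and 4.41 FPKM in Ad-GFP and of 2.81, 3.13 and 3.46 in Ad-h-NR4A2. Each Ad-h-NR4A2 sample lay below the Ad-GFP sample of its number, at 0.782 to 0.916 of it, and the ranges overlapped narrowly. The log2 fold change was -0.24 (SE 0.08, 95% interval -0.42 to -0.06, adjusted p 0.0343), on 297 to 515 fragments a sample in Ad-GFP and 316 to 362 in Ad-h-NR4A2. This drop is small, a ratio of means of 0.839, and its adjusted p no longer met 0.05 when any of 7 of the samples was left out. With all samples and the sample number as a block, the limma adjusted p of Erbb2 was 0.00701.

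Erbb4, which binds neuregulins as well as Hbegf and Btc, had a lowest, median and highest level of 2.24, 2.91 and 3.07 FPKM in Ad-GFP. In Ad-h-NR4A2 the same values were 1.56, 1.82 and 2.68. The groups overlapped only through Ad-h-NR4A2 24, the highest of its group, which was also the 1 sample above its Ad-GFP partner, and the other Ad-h-NR4A2 samples all lay below every Ad-GFP sample. The log2 fold change was -0.51 (SE 0.13, 95% interval -0.79 to -0.23, adjusted p 0.00682), with a ratio of means of 0.698 and a lower value in 5 of 6 pairs. Pair 27 had the lowest ratio, 0.509, and pair 24 the highest, 1.08. Behind these values stood 212 to 322 fragments in Ad-GFP and 132 to 224 in Ad-h-NR4A2.

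Egfr, the receptor of EGF, Areg and Tgfa, was far less abundant. Its lowest, median and highest levels were 0.0691, 0.157 and 0.349 FPKM in Ad-GFP and 0.0873, 0.156 and 0.258 in Ad-h-NR4A2. The samples of the groups lay among each other, with 3 of 6 pairs higher. The log2 fold change was 0.01 with a 95% interval of -0.52 to 0.54 (adjusted p 0.977), so a change in either direction of up to that size was not detectable on 7 to 39 fragments a sample.

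Erbb3, the receptor that binds neuregulins and signals through its partner, was near the floor of the measurement, at 0.0181 to 0.0671 FPKM in Ad-GFP (median 0.0454) and 0.00902 to 0.0226 in Ad-h-NR4A2 (median 0.0159). In Ad-GFP, 3 samples stood well above the rest, and the lowest of the group overlapped Ad-h-NR4A2. It was lower in 6 of 6 pairs, yet on 2 to 7 fragments against 1 to 2. The log2 fold change of -0.30 (SE 0.13, 95% interval -0.58 to -0.02) missed the threshold with an adjusted p of 0.0808, and it met the threshold under 4 of the alternatives tried.

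Of the 4 receptors, none was called, where called means a ratio between the group means of at least 1.5 in either direction together with an adjusted p below 0.05. This count depends on single samples and settings: Erbb4 was called lower without Ad-h-NR4A2 24 (ratio 0.645), and Erbb3, whose ratio was 0.357, was called lower under the 4 alternatives in which it met the threshold. Of all 10950 genes tested, 15.2% were called, 7.94% as higher and 7.24% as lower in Ad-h-NR4A2. Without the limit on the ratio, Erbb2 and Erbb4 were 2 lower receptors of 4, beside 21.7% of all genes tested that were lower and 19.3% that were higher at an adjusted p below 0.05. The FPKM of the 4 receptors added up to 6.74 ± 0.690 (SD, n = 6) in Ad-GFP and 5.26 ± 0.445 in Ad-h-NR4A2, nearly all of it Erbb2 and Erbb4.

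**Figure D1:**
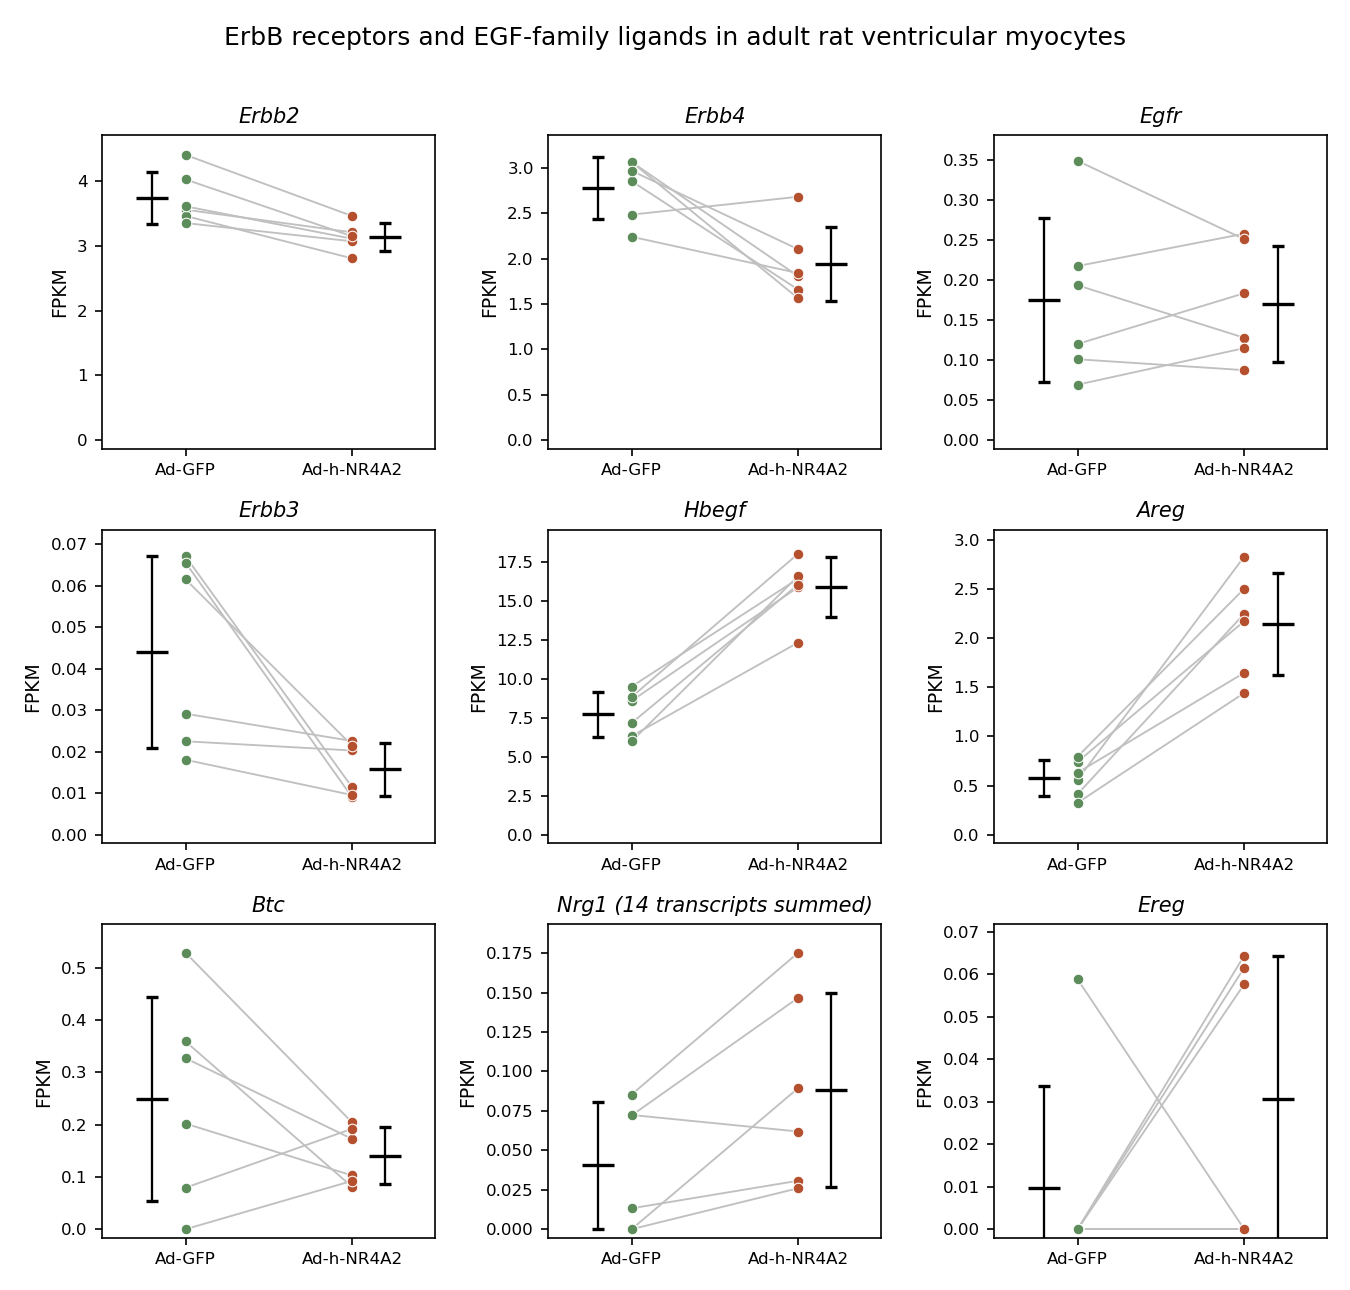
FPKM of the 9 genes in each of the 12 samples, on axes that start at 0, with 1 point per sample (6 Ad-GFP, 6 Ad-h-NR4A2), grey lines between samples of the same number, and a black bar for the mean with its SD. The points of Hbegf (5.98 to 9.49 against 12.3 to 18.0 FPKM) and Areg (0.325 to 0.795 against 1.44 to 2.83 FPKM) do not overlap between groups, and those of the other 7 genes do.

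Among the ligands, Hbegf, which encodes a heparin-binding growth factor for Egfr and Erbb4 that is made as a membrane-bound precursor, was the most abundant. Its lowest, median and highest levels were 5.98, 7.87 and 9.49 FPKM in Ad-GFP and 12.3, 16.2 and 18.0 in Ad-h-NR4A2. The lowest Ad-h-NR4A2 sample lay above the highest Ad-GFP sample, and within pairs the ratio ran from 1.73 (pair 26) to 2.77 (pair 27) with a median of 2.00. The log2 fold change was 1.04 (SE 0.12, 95% interval 0.78 to 1.31, adjusted p 1.71e-05), higher in 6 of 6 pairs, on 193 to 334 fragments in Ad-GFP and 369 to 645 in Ad-h-NR4A2. In the two-sided exact permutation test over samples its p was 0.00216, the smallest that 6 against 6 samples can give.

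Areg, whose product amphiregulin binds Egfr alone, was the less abundant of the pair that rose and had the larger ratio. Its lowest, median and highest levels were 0.325, 0.596 and 0.795 FPKM in Ad-GFP and 1.44, 2.21 and 2.83 in Ad-h-NR4A2. Every Ad-h-NR4A2 sample was above every Ad-GFP sample, and the ratio within pairs ran from 2.61 (pair 28) to 5.44 (pair 24) with a median of 3.80. The log2 fold change was 1.74 (SE 0.21, 95% interval 1.30 to 2.18, adjusted p 1.76e-05) and the exact permutation p was 0.00216. These values rested on 6 to 22 fragments a sample in Ad-GFP and 39 to 61 in Ad-h-NR4A2.

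Hbegf and Areg were the only members whose groups did not overlap, both of them higher, beside 10.9% of all genes tested with no overlap and higher values and 10.6% with no overlap and lower values. The 5 ligands added up to 8.56 ± 1.40 FPKM (SD, n = 6) in Ad-GFP and 18.2 ± 1.95 in Ad-h-NR4A2, and Hbegf made up most of both sums.

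Betacellulin (Btc), a ligand of Egfr and Erbb4, was at 0 in 1 Ad-GFP sample and ran up to 0.528 FPKM in that group (median 0.264), and from 0.0810 to 0.204 FPKM in Ad-h-NR4A2 (median 0.138). The Ad-GFP samples spread on both sides of the Ad-h-NR4A2 range. Fitted without the filter on low values, the log2 fold change was -0.33 with a wide 95% interval, -1.24 to 0.58 (adjusted p 0.726, two-sided exact permutation p 0.455), on 0 to 6 fragments a sample.

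Neuregulin 1 (Nrg1), the ligand of Erbb3 and Erbb4, was near 0 in these cultures. Its 14 transcripts added up to 0 to 0.0854 FPKM in Ad-GFP (median 0.0427) and to 0.0260 to 0.175 in Ad-h-NR4A2 (median 0.0757). It was at 0 in 2 Ad-GFP samples, higher in 5 of 6 pairs, and the groups overlapped (two-sided exact permutation p 0.143 on the sum). The whole gene rested on 0 to 5 fragments in Ad-GFP and 2 to 12 in Ad-h-NR4A2. Its transcript with the highest mean had a log2 fold change of 0.33 (95% interval -0.17 to 0.83, adjusted p 0.376) in the fit without the filter. Of the 14 transcripts, 8 never reached 0.01 FPKM, and over the 10 samples above 0 the largest transcript was any of 5. With so few fragments those differences between transcripts do not show which form the cells made.

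Epiregulin (Ereg), a ligand of Egfr and Erbb4, was at 0 in 5 Ad-GFP samples and in 3 Ad-h-NR4A2 samples. Its highest values, 0.0588 FPKM in Ad-GFP and 0.0644 in Ad-h-NR4A2, were each a single fragment. A difference was not detectable at this depth, with a log2 fold change of 0.23 (95% interval -0.17 to 0.64, adjusted p 0.480, two-sided exact permutation p 0.303).

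By mean FPKM in Ad-GFP the order was Hbegf, Erbb2, Erbb4, Areg, Btc, Egfr, Erbb3, Nrg1 and Ereg. Neighbours whose ranges stayed apart were Hbegf and Erbb2 (a ratio of 2.07), Erbb2 and Erbb4 (1.34), Erbb4 and Areg (4.82), and Egfr and Erbb3 (3.97), and the others overlapped. In Ad-h-NR4A2 the order was Hbegf, Erbb2, Areg, Erbb4, Egfr, Btc, Nrg1, Ereg and Erbb3. There the ranges stayed apart only between Hbegf and Erbb2 (a ratio of 5.06) and between Erbb4 and Egfr (11.4). Areg thus moved from well under Erbb4 to its level, above it in 3 of 6 samples.

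Ratios between members within each sample, chosen after the values were seen and given without a test, describe the same shift. Hbegf stood at 2.82 ± 0.708 times Erbb4 in Ad-GFP (SD, n = 6) and at 8.55 ± 2.20 times in Ad-h-NR4A2, higher in 6 of 6 pairs. Areg stood at 0.0763 ± 0.0251 of Hbegf in Ad-GFP and at 0.137 ± 0.0395 in Ad-h-NR4A2, also higher in 6 of 6 pairs. Erbb4 stood at 0.746 ± 0.0804 of Erbb2 and at 0.622 ± 0.131, lower in 5 of 6 pairs.

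The genes most like each better-expressed member were sought among 8977 other genes with a mean of at least 1 FPKM, by Pearson r of log2 values over 12 samples. These samples share groups and, across genes, libraries and depth, so r is only a description. Erbb2 was most like St3gal2 (r = 0.959) and Lhfp (0.955), and with each group mean subtracted most like Zfp563 (0.950) and St3gal2 (0.941). Erbb4 was most like Slco5a1 (0.923) and Kalrn (0.917), and within groups most like Slco5a1 (0.838) and Nrp1 (0.837). Hbegf was most like Rfc3 (0.975) and Klf5 (0.968), and within groups most like Stk24 (0.849) and Txnrd2 (0.838). Areg was most like Limd1 (0.979) and Rangap1 (0.974), and within groups most like Vps37b (0.961) and Limd1 (0.937). No other member of the family was among these genes.

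On the Rn5 genome of the tables, Btc (14:18142884-18181817), Areg (14:18431477-18440735), Ereg (14:18486956-18500731) and the further EGF-family gene Epgn (14:18535048-18543078) lie in a row on chromosome 14. Areg was the one gene of this row above 0 in all samples, and Epgn is named after its values were seen. The next gene before the row, Parm1, looked at after the values were seen, was at 432 ± 29.2 FPKM (SD, n = 6) in Ad-GFP and 391 ± 63.7 in Ad-h-NR4A2 (log2 fold change -0.16, 95% interval -0.35 to 0.04, adjusted p 0.190). Egfr lies far off on the same chromosome (14:100438989-100617315). Fbxo48, 36.5 kb before it and also picked after the values were seen, was called higher, from 0.395 ± 0.144 to 0.923 ± 0.234 FPKM (log2 fold change 1.07, adjusted p 0.00183). Hbegf (18:29036863-29046746) lies between Pfdn1 and Slc4a9, also looked at after the values were seen. Pfdn1 went from 151 ± 7.09 to 168 ± 13.8 FPKM (log2 fold change 0.16, adjusted p 0.0363), a ratio under 1.5, and Slc4a9 stayed below 0.01 FPKM on average in both groups. Of the nearest genes on either side of the members, leaving out members, 11 could be tested. Fbxo48 was the 1 called, beside 15.2% of all genes tested, and 3 of the 11 had an adjusted p below 0.05. Over all genes tested, 19.3% were higher and 21.7% lower at that threshold. The other members are Erbb2 (10:86163531-86187663), Erbb3 (7:2964640-2983936), Erbb4 (9:74804305-75959067) and Nrg1 (16:62632432-63718738).

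The promoters of Hbegf and Areg are printed because these are the members that rose together. RefSeq promoters on the build GRCr8, from 250 bases before to 50 bases after the gene start, were at hand for 6 of the 9 members, and those of Erbb3, Nrg1 and Ereg were not. Each was searched on both strands for AAAGGTCA, the sequence that NR4A receptors bind as single molecules, and for its core AGGTCA, which every AAAGGTCA contains. None of the 6 promoters held either run of letters, beside 1.43% and 16.2% of 33469 rat promoters of the same 300 bases. The run TGACGTCA, which reads the same on both strands and is known as the cyclic AMP response element, was searched after the sequences were seen. Of the 6, only Areg held it, with the first base at position -91 from the gene start, beside 1.83% of all promoters. Below are the 250 bases before the start, each on the minus strand and read 5′ to 3′, with that run in capitals. Areg is at 14:17265642-17265891 (54.4% G and C) and Hbegf at 18:28390221-28390470 (67.6% G and C). A match is a description of letters in this window.
Areg: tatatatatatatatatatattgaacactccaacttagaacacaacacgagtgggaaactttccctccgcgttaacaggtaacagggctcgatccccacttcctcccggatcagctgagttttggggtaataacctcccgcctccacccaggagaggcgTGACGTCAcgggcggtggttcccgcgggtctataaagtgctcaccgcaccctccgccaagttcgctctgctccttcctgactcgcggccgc
Hbegf: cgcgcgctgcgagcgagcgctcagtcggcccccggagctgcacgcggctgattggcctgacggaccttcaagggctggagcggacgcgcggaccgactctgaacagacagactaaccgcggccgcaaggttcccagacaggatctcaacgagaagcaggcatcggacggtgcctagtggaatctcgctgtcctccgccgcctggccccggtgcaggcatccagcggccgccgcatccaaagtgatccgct

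The further genes of the pathway come from lists of 102 names in 7 roles, the members not counted. Of these, 92 were in the tables and 88 could be tested. Of the 88, 9 were called higher and 9 lower, 20.5% beside 15.2% of all genes tested. At an adjusted p below 0.05 alone, 13 of the 88 were higher, beside 19.3% of all genes tested, and 27 were lower, beside 21.7%. With the sample number as a block these counts were 17 and 36, and the calls over all genes tested rose from 1662 to 1825. The shares of all genes given here come from the fit without the block, so they do not apply to 17 and 36. The median log2 fold change was -0.09, beside -0.02 over all 10950 genes.

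Of the other EGF-family ligands, 5 were in the tables and 2 could be tested. Tgfa, which encodes the Egfr ligand TGF alpha, fell from 0.919 ± 0.234 FPKM (SD, n = 6) in Ad-GFP to 0.367 ± 0.130 in Ad-h-NR4A2 (log2 fold change -1.14, SE 0.20, adjusted p 0.00051). It was lower in 6 of 6 pairs and its groups did not overlap, so the Egfr ligands moved in both directions. Egf stood at 0.107 and 0.147 FPKM (log2 fold change 0.25, 95% interval -0.11 to 0.61, adjusted p 0.250). Nrg2, Nrg4 and Epgn, named after their values were seen to complete the list, were at 0 in some samples.

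Ligands of this family are freed from the membrane by proteases. The list holds such proteases, the convertase Furin and the inactive rhomboids Rhbdf1 and Rhbdf2, partners of Adam17 that are no proteases themselves. Of its genes in the tables, all 9 could be tested and 2 were called, 22.2% beside 15.2% of all genes tested. At an adjusted p below 0.05, 5 were lower and 1 higher, beside 21.7% and 19.3% of all genes tested. The median log2 fold change of the 9 was -0.41. Their summed FPKM was 117 to 133 in Ad-GFP and 97.6 to 109 in Ad-h-NR4A2, with no overlap. The pair called lower were Adam19, a protease of neuregulin precursors, which fell from 16.6 ± 2.89 to 4.22 ± 1.00 FPKM (log2 fold change -1.96, adjusted p 6.24e-07), and Adam10, which sheds Btc and Egf and fell from 18.8 ± 1.67 to 11.3 ± 0.851 FPKM (log2 fold change -0.73, adjusted p 2.15e-06). With the sample number as a block 6 genes of the list were lower. Rhbdf2, named after its values were seen, was then called lower as well (log2 fold change -0.79, adjusted p 0.0241). Adam17, the main protease of Areg and Hbegf, singled out here after its values were seen, fell from 13.2 ± 1.30 to 9.88 ± 0.338 FPKM (log2 fold change -0.41, adjusted p 0.000248), a ratio of 0.750. In both groups Furin, which activates these proteases, and Adam9 were the most abundant. Furin fell from 27.7 ± 0.917 to 19.7 ± 1.43 FPKM (log2 fold change -0.49, adjusted p 6.34e-06), and Adam9 rose from 23.1 ± 1.67 to 32.5 ± 4.15 (log2 fold change 0.49, adjusted p 0.000255), both with a ratio short of 1.5. The transcripts of Areg and Hbegf thus rose while that of Adam17 fell, and the release of ligand was not measured.

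Over the 12 tested genes that restrain the receptors or turn them over, the median log2 fold change was -0.10. Among them 1 was called, 8.33% beside 15.2% of all genes tested. It was Rnf41, the ubiquitin ligase that lowers ErbB3, which fell from 17.9 ± 1.31 to 8.95 ± 1.62 FPKM with no overlap (log2 fold change -1.01, SE 0.10, adjusted p 3.11e-06). The most abundant were Stub1, a ligase of chaperone clients such as ErbB2, at 144 and 152 FPKM (log2 fold change 0.07, adjusted p 0.0645), and Sh3kbp1, an adaptor of receptor uptake, at 59.5 and 55.3 FPKM (log2 fold change -0.10, adjusted p 0.358). At an adjusted p below 0.05 alone, 0 genes of the list were higher and 2 lower, beside 19.3% and 21.7% of all genes tested. With the sample number as a block, the adjusted p of Stub1 was 0.0406 and that of Sh3kbp1 0.0287. In that fit 2 genes of the list were higher and 6 lower, and these shares of all genes do not apply to it.

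Of 19 tested adaptors and partner enzymes, 4 were called, all of them higher, 21.1% beside 15.2% of all genes tested. Without the limit on the ratio 6 were higher and 6 lower, beside 19.3% and 21.7% of all genes tested. The median log2 fold change of the 19 was 0.02. Grb7, which docks on ErbB2 and ErbB3, went from 0.0725 ± 0.0505 to 1.41 ± 0.836 FPKM (log2 fold change 3.02, adjusted p 3.72e-06). Its Ad-GFP samples were all near 0, and the Ad-h-NR4A2 samples spread from 0.657 to 3.01. Nck2, which links receptors to actin, rose from 4.16 ± 0.492 to 10.5 ± 1.53 FPKM (log2 fold change 1.32, adjusted p 9.3e-07), and the docking protein gene Gab2 from 10.7 ± 0.747 to 19.5 ± 1.84 (log2 fold change 0.86, adjusted p 5.52e-07). The kinase gene Src ranged over 0.665 to 1.04 FPKM in Ad-GFP and over 0.927 to 2.12 in Ad-h-NR4A2, an overlapping rise (log2 fold change 0.63, adjusted p 0.0194). The most abundant of the list had small differences: Ptpn11, the phosphatase SHP2, stood at 121 and 112 FPKM (log2 fold change -0.11, adjusted p 0.220, or 0.00674 with the sample number as a block), and Crk at 74.8 and 81.0 (log2 fold change 0.11, adjusted p 0.00931).

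Along the Ras-ERK route all 12 genes in the tables could be tested, with a median log2 fold change of -0.13. At an adjusted p below 0.05, 6 were lower and none higher, beside 21.7% and 19.3% of all genes tested. Of the 12, 2 were called, 16.7% beside 15.2% of all genes tested. With the sample number as a block 1 was higher, Map2k1, named after its values were seen (log2 fold change 0.10, adjusted p 0.00704, or 0.0699 without the block, higher in 6 of 6 pairs). Rasa1, which switches Ras off, fell from 41.9 ± 4.16 to 26.4 ± 2.64 FPKM (log2 fold change -0.66, adjusted p 1.63e-05). Ksr1, a scaffold of the kinases, fell from 1.81 ± 0.530 to 0.895 ± 0.354 FPKM (log2 fold change -0.99, adjusted p 0.0111). So a brake and a scaffold were both lower. The most abundant, Map2k2 at 99.6 and 102 FPKM (log2 fold change 0.04, 95% interval -0.06 to 0.14) and Araf at 88.6 and 87.4 (log2 fold change -0.02, 95% interval -0.16 to 0.11), did not pass the test.

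On the PI3K-Akt side 1 of 15 tested genes was called, 6.67% beside 15.2% of all genes tested. At an adjusted p below 0.05, 1 was higher and 4 were lower, beside 19.3% and 21.7% of all genes tested. The list holds Pdk1 (181 and 182 FPKM, its most abundant name), in the rat the symbol of a pyruvate dehydrogenase kinase and not of the kinase that acts on Akt. Over the other 14 genes, a selection made after the data were seen, the median log2 fold change was -0.01 (0.01 with Pdk1), or -0.03 with values rescaled to TPM and -0.02 after quantile normalization. Pik3r3, a regulatory subunit of PI3K, went up from 5.96 ± 0.601 to 67.1 ± 12.7 FPKM (adjusted p 1.21e-10, log2 fold change 3.46). Its lowest Ad-h-NR4A2 sample, 51.1 FPKM, stood far above its highest Ad-GFP sample, 6.98 FPKM. Akt1, a kinase that PI3K activates, fell from 129 ± 4.34 to 117 ± 5.98 FPKM (log2 fold change -0.14, adjusted p 0.0152).

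Genes that ERK signalling is known to induce, with those that feed back on it, were 19, all tested. Of these, 4 were called higher and 3 lower, 36.8% beside 15.2% of all genes tested, and after quantile normalization 4 were called lower. The median log2 fold change of the 19 was 0.02, or -0.01 after quantile normalization. Higher were Ier3, from 72.5 ± 14.0 to 285 ± 58.8 FPKM (log2 fold change 1.97, adjusted p 2.58e-07), and the transcription factor gene Myc, from 24.9 ± 4.82 to 42.0 ± 3.78 (log2 fold change 0.77, adjusted p 0.000186). Phlda1 rose from 54.8 ± 17.0 to 92.4 ± 20.0 FPKM (log2 fold change 0.78, adjusted p 0.00679) and Spry1, an inhibitor of the route, from 1.97 to 3.88 (log2 fold change 0.97, adjusted p 0.000668). Lower were Spred1, another inhibitor of the route, from 3.92 to 1.86 FPKM (log2 fold change -1.04, adjusted p 5.14e-06), and the transcription factor genes Etv5, from 3.49 to 1.59 (log2 fold change -1.05, adjusted p 0.00254), and Fosl1, from 5.12 to 2.85 (log2 fold change -0.86, adjusted p 0.0231). The call of Fosl1 was lost with no filter and without Ad-GFP 29, Ad-h-NR4A2 25 or Ad-h-NR4A2 27. Genes often read as early ERK targets, picked after their values were seen, gave log2 fold changes of -0.18 for Dusp6 (95% interval -0.89 to 0.53), -0.09 for Egr1 (-0.42 to 0.24) and -0.09 for Fos (-0.45 to 0.28). Egr1 was lower in 6 of 6 pairs, Fos in 4 and Dusp6 in 3, and with the sample number as a block the intervals were -0.47 to 0.11 for Dusp6, -0.19 to 0.02 for Egr1 and -0.18 to 0.01 for Fos (adjusted p 0.254, 0.132 and 0.102). The called genes of this list thus did not move one way. A link between these genes and the rise of Hbegf and Areg was not tested.

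**Figure D2:**
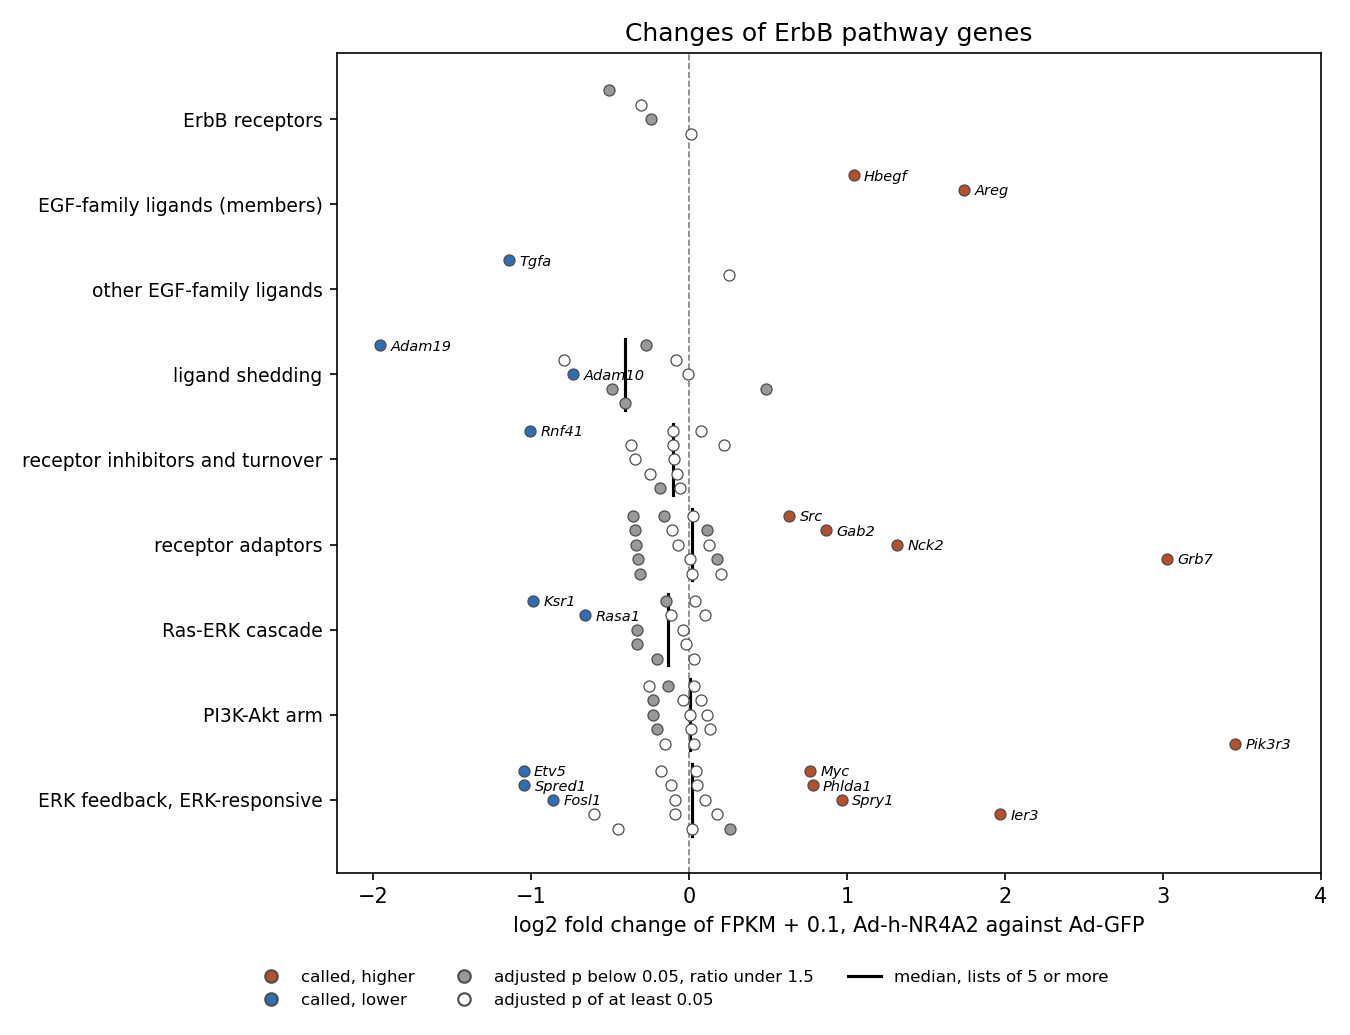
Log2 fold change of FPKM + 0.1 (Ad-h-NR4A2 against Ad-GFP, 6 samples each) on the horizontal axis for each tested gene of the 9 lists, with 1 point per gene. Colour gives genes called higher or lower, grey an adjusted p below 0.05 with a ratio under 1.5, white the rest, and the black line is the median of a list of 5 or more tested genes; the points farthest out are Pik3r3 (3.46), Grb7 (3.02), Ier3 (1.97) and Adam19 (-1.96).

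Markers of other heart cells were looked at because Nrg1 and Hbegf are also made outside the myocyte. The 6 endothelial markers were all in the tables and tested, with none passing the test and a median log2 fold change of -0.02. By the mean over all 12 samples, Kdr was the most abundant (4.76 and 3.27 FPKM), followed by Tie1 (2.88 and 2.81 FPKM). For Ad-GFP 24 to 29 their summed levels were 8.43, 21.4, 16.4, 14.1, 6.95 and 19.0 FPKM, and for Ad-h-NR4A2 24 to 29 they were 8.61, 20.7, 13.4, 13.9, 5.90 and 13.6 FPKM. The sums varied with the sample number more than with the virus.

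Of 6 fibroblast markers, all tested, 1 was called (2 after quantile normalization, with Col1a1): Col3a1, the most abundant, fell from 3.64 to 1.78 FPKM (log2 fold change -0.94, adjusted p 0.0239), and Dcn came next at 1.29 and 1.28 FPKM. Col3a1 was lower in 5 of 6 pairs, and its call was lost with no filter and without Ad-GFP 25, 26 or 29. Dcn was also lower in 5 of 6 pairs (log2 fold change -0.16, adjusted p 0.774). Others of the list, named after their values were seen, were Col1a1 and Pdgfra, lower in 6 of 6 pairs (log2 fold changes -0.57 and -0.43, adjusted p 0.0944 and 0.164), Postn, lower in 5 of 6 (log2 fold change -0.16, adjusted p 0.622), and Lum, higher in 5 of 6 (log2 fold change 0.26, adjusted p 0.593). The sums were 6.20, 8.87, 7.52, 4.14, 3.40 and 6.54 FPKM in Ad-GFP 24 to 29 and 3.18, 6.21, 4.27, 5.42, 1.57 and 3.10 in Ad-h-NR4A2 24 to 29. Of 5 macrophage markers 3 were tested and 2 called. Csf1r, the most abundant, rose from 10.1 ± 3.87 to 40.2 ± 2.35 FPKM (log2 fold change 2.06, adjusted p 2.15e-06) and Cd14 from 0.222 to 1.19 (log2 fold change 1.99, adjusted p 0.000493). The rest of the list, named after its values were seen, was Cd68 at 0.463 and 0.482 FPKM (log2 fold change 0.05, 95% interval -0.56 to 0.66), and Ptprc (0.0258 and 0.0218 FPKM) and Cd163 (0.0193 and 0.0232 FPKM), both at 0 in some samples. Its sums, nearly all Csf1r, were 10.1, 10.8, 11.6, 6.07, 17.3 and 9.25 FPKM in Ad-GFP 24 to 29 and 43.3, 45.5, 41.4, 38.9, 40.2 and 42.5 in Ad-h-NR4A2 24 to 29.

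Of 4 smooth muscle markers 3 were tested and 1 was called, Myh11, which fell from 3.05 to 1.97 FPKM (log2 fold change -0.61, adjusted p 0.00284). Its call was lost by the ratio limit without Ad-GFP 28, Ad-h-NR4A2 27 or Ad-h-NR4A2 29. The most abundant, Acta2 and Tagln, stood at 4.57 and 3.37 FPKM in Ad-GFP and at 4.38 and 3.10 in Ad-h-NR4A2. The sums ran from 7.07 to 20.3 FPKM in Ad-GFP and from 6.86 to 16.5 in Ad-h-NR4A2. None of these marker lists held a gene at 0 in every sample. Their calls stand beside 15.2% called over all genes tested. The part of these cells, and of the lower cardiomyocyte markers, in the values of the ErbB genes was not tested.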

How the data were processed

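Stranded mRNA libraries of 6 Ad-GFP and 6 Ad-h-NR4A2 samples were pooled and sequenced with paired-end reads. The authors used STAR for alignment to Rn5 and Cufflinks for quantification, and deposited FPKM for each transcript. Here 0.1 was added to each FPKM and the log2 values were compared between groups, unpaired, with limma 3.58.1 (linear models with moderated variance that follows the mean) in R 4.3.3, on the transcript with the highest mean for each of 10950 genes above 0 in all 12 samples. P-values are two-sided and adjusted by Benjamini-Hochberg over these genes. Calls needed a ratio between the mean FPKM of the groups of 1.5 or more, either way, besides an adjusted p below 0.05. Members with zeros were fitted without the filter, over 17301 genes, and tested over samples with the two-sided exact permutation test. The code was tested on simulated data.

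Depth was read from transcripts of at least 500 bases, as the spacing that makes FPKM of up to 6 fragments whole within 0.05. It held for 99.4 to 99.9% of such values. The authors describe 6 independent experiments on myocytes from different rats. The labels do not state whether samples sharing a number come from the same rat. Samples sharing a number correlated with r of 0.347 to 0.623 after group means were subtracted, and in 6 of 6 numbers the best match was the own number.

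The members and lists were chosen with earlier results of these data known. Named are all 9 members, in each list the genes called and the 2 most abundant, the 2 genes most like each member with a mean of at least 1 FPKM in each of 2 ways, and Nr4a2. Names outside this rule are marked as such. The alternatives were pseudocounts of 1 and 0.01, no filter, a mean of at least 1 FPKM, quantile normalization, rescaling to TPM, no trend in limma, the sample number as block, summed transcripts, other ratio limits and each sample left out. Permutation tests ran in NumPy 2.4.6 under Python 3.11.15, plots in Matplotlib 3.10.9, and summaries in NumPy 2.4.6 and pandas 2.3.3.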

Additional observations from a re-analysis of the deposited data

Results flagged for a closer look

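In 68 groups of 6 samples (34 genes in each group), 6 single values stood apart from their group by Dixon's test, at its 95% critical value for the gap over the group's range. By chance such a test sets apart about 5% of groups. Among the members it was only Ereg in Ad-GFP 27 (0.0588 FPKM, a single fragment, where the group median was 0). Ad-h-NR4A2 24 stood apart for 3 genes: Adam10 at 12.9 FPKM (group median 11.1), Rnf41 at 12.1 (8.39) and Pln at 1249 (838). In each it lay on the side of Ad-GFP, as it did for Erbb4, where it was highest of its group without standing apart by this test. Grb7 was at 3.01 FPKM in Ad-h-NR4A2 29 (group median 1.22), and Nck2 at 3.17 in Ad-GFP 24 (4.28). Without Ad-h-NR4A2 24, the log2 fold change of Erbb4 was -0.60 (limma adjusted p 0.000859, over its alternatives 0.000859 to 0.0179) and the ratio of means 0.645, so that Erbb4, not called with all samples, was called lower. No cause of this sample's position was tested.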

How the results depend on the processing

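The number of genes called, 1662, was 4484 with no limit on the ratio and 803 with a ratio of at least 2, and between 1542 and 1770 with 1 sample left out. With the sample number as a block, 1825 were called, and no member crossed the threshold (adjusted p 0.00701 for Erbb2, 0.00787 for Erbb4, 0.0961 for Erbb3).

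Hbegf (log2 fold change 0.96 to 1.11), Areg (0.99 to 1.90, the lowest with a pseudocount of 1) and Erbb4 (-0.60 to -0.37) kept direction and side of the adjusted p threshold in 21 of 21 alternatives each. With the ratio limit of 1.5 added, Hbegf and Areg were called in all 21, and Erbb4 in 1 of 21, without Ad-h-NR4A2 24 (ratio 0.645). Egfr (-0.11 to 0.17) stayed above an adjusted p of 0.05 in 20 of 20, and Nrg1 (0.05 to 1.14), Ereg (0.03 to 0.95) and Btc (-0.64 to -0.10) in 19 of 19 each. Nrg1 was at 0.11 without Ad-h-NR4A2 29 (adjusted p 0.445, over its alternatives 0.286 to 0.472). Btc was at -0.64 without Ad-GFP 26, -0.20 without 25 and -0.11 without 27 (adjusted p 0.101, 0.951 and 1, over its alternatives 0.101 to 1).

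Erbb2 passed in 14 of 21 alternatives, with an adjusted p of 0.00701 to 0.0749. With 1 sample left out its log2 fold change ran from -0.27 to -0.19. The adjusted p exceeded 0.05 without Ad-GFP 26 (-0.25, 0.0505), 27 (-0.19, 0.0746) or 29 (-0.22, 0.0703), and without Ad-h-NR4A2 25 (-0.21, 0.0749), 26 (-0.24, 0.0593), 28 (-0.24, 0.0562) or 29 (-0.24, 0.0542). Fewer samples are part of each of these fits.

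Erbb3, at 0.0808 as reported (0.0272 to 0.225 over 20 alternatives), passed with a pseudocount of 0.01 (-0.99, 0.0338), with no filter (-0.30, 0.0459), in limma without trend (-0.30, 0.0272) and without Ad-GFP 28 (-0.36, 0.0498), and was then called lower. The cause was not tested. With 1 sample left out its log2 fold change ran from -0.36 to -0.26. Over all 20 alternatives it ran from -0.99 to -0.04, the latter with a pseudocount of 1 (adjusted p 0.225).

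Of the pathway lists, 16 to 20 genes were called, 18 as reported. With the block, 13 genes of these lists passed an adjusted p of 0.05 that had not. Fosl1 lost its call with no filter (-0.86, 0.0627) and without Ad-GFP 29 (-0.75, 0.0512), Ad-h-NR4A2 25 (-0.71, 0.0523) or 27 (-0.80, 0.0501). Rhbdf2 gained one without Ad-GFP 25 (-1.12, 0.0030) and with the block (-0.79, 0.0241). Spry4 gained one without Ad-GFP 24 (-0.77, 0.0272), with the block (-0.60, 0.00392) and after quantile normalization (-0.66, 0.0376). Of the marker lists, Col3a1 lost its call with no filter (-0.94, 0.0651) and without Ad-GFP 25 (-0.83, 0.0556), 26 (-0.85, 0.0533) or 29 (-0.86, 0.0502), and Col1a1 gained one without Ad-GFP 27 (-0.70, 0.0462) or Ad-h-NR4A2 25 (-0.72, 0.0362), with the block (-0.57, 0.00616) and after quantile normalization (-0.64, 0.0378). By the ratio limit, Myh11 lost its call without Ad-GFP 28 (-0.56), Ad-h-NR4A2 27 (-0.56) or 29 (-0.55), and Myh6 gained one without Ad-GFP 28 (-0.62), Ad-h-NR4A2 26 (-0.59), 28 (-0.59) or 29 (-0.60). Rhbdf2, Spry4, Col1a1 and Myh6 are named after their values were seen. With the filter on a mean of at least 1 FPKM, Egfr, Erbb3, Nrg1, Ereg, Btc, Tgfa and Grb7 gave no value, and the calls of Tgfa and Grb7 are the pair missing from the 16.

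These are levels of RNA. Receptor and ligand protein, its release and phosphorylation of the receptors were not measured, and 1 time and 1 dose of virus were sampled. Depth limits Erbb3, Nrg1, Ereg and Btc, which rested on at most 12 fragments a sample, and the size of their fold changes depends on the pseudocount.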
